A study of Mus musculus with 7 samples.

Results

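The genes described are the 10 that encode the chains of the type IV, VIII, XV and XVIII collagens, namely Col4a1 to Col4a6, Col8a1, Col8a2, Col15a1 and Col18a1. They were chosen by family and are 10 of the 55487 genes in the deposited tables. RNA was sequenced from thoracic aortas of male mice aged 7 weeks of strain C57BL/6 in the labels and C57BL/6J in the study's text, with 3 Col3a1+/G182R libraries and 4 Col3a1+/+ libraries, numbered by replicate. Col3a1+/G182R mice carry 1 germline knock-in allele of Col3a1, which encodes the chain of type III collagen, in which a glycine of the triple helix is replaced by arginine (G182R), and 1 wild-type allele. Col3a1+/+ mice carry 2 wild-type alleles and no other allele or treatment is named for either genotype. The allele is present in every cell, homozygotes were not sequenced, and no separation of the layers of the wall is described. The study's general tissue collection froze the proximal part of the thoracic aorta after freeing it of fat, without naming the sequenced aortas, in which adipocyte markers summed to 3214 to 6075 TPM (scaled counts per length) in Col3a1+/G182R and 2619 to 5501 TPM in Col3a1+/+ libraries. Col3a1 itself had 4107, 4216 and 5208 CPM (counts scaled to library size) in Col3a1+/G182R aortas, against 5483, 3965, 3578 and 2831 CPM in Col3a1+/+ aortas (log2 fold change 0.19, edgeR adjusted p = 0.633), a level that does not separate the genotypes and, since gene counts do not read the codon, does not check the labels.

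Unlike the fibrillar collagens, of which type III is one, these collagens assemble into sheets, lattices and bridges. Type IV collagen is the scaffold of every basement membrane, the thin matrix on which endothelium rests and which wraps each smooth muscle cell of the media. Its 6 chains join in the endoplasmic reticulum in 3 fixed combinations, which are 2 alpha-1 chains with alpha-2, the alpha-3, alpha-4 and alpha-5 chains together, and 2 alpha-5 chains with alpha-6. The combination with alpha-1 is found in nearly all basement membranes, that with alpha-3 is known from the glomerulus of the kidney, and that with alpha-6 is known from smooth muscle. In humans, variants of COL4A1 and COL4A2 cause small-vessel disease and variants of COL4A3, COL4A4 and COL4A5 cause Alport syndrome of the kidney. Type VIII collagen is a short-chain collagen that builds hexagonal lattices in Descemet's membrane of the cornea and in vessel walls. Types XV and XVIII carry interrupted triple helices and glycosaminoglycan side chains, lie at the outer face of basement membranes, and release restin and endostatin from their C-terminal ends.

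The 6 type IV genes lie as 3 pairs that are transcribed away from each other, and the bases at their starts are shown because this layout is common to the 3 pairs. On chromosome 8 of the mouse build GRCm38, Col4a1 (ENSMUSG00000031502, minus strand, 11198423 to 11312826) and Col4a2 (ENSMUSG00000031503, plus strand, 11312805 to 11449287) overlap by 22 bases at their 5′ ends in the GENCODE M21 annotation. These 22 bases belong to the first exon of both genes and stand in capitals in the 30 bases at chr8:11312801-11312830, given on the plus strand from RefSeq's GRCm38 promoter sequences.
Col4a1 and Col4a2 starts: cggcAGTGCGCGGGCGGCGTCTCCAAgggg
On chromosome 1, Col4a4 (ENSMUSG00000067158, minus strand, 82448423 to 82586849) and Col4a3 (ENSMUSG00000079465, plus strand, 82586921 to 82722059) are separated by 71 bases, which are chr1:82586850-82586920 on the plus strand. The Col4a3 start used here is that of a retained-intron transcript, and its longest coding transcript starts at 82586976.
between Col4a4 and Col4a3: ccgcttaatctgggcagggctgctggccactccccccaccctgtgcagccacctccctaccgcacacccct
On chromosome X, Col4a6 (ENSMUSG00000031273, minus strand, 141165403 to 141474076) and Col4a5 (ENSMUSG00000031274, plus strand, 141475385 to 141689234) are 1308 bases apart. The bases next to each start are given 5′ to 3′ toward its own gene, as chrX:141474077-141474326 on the minus strand for Col4a6 and chrX:141475169-141475384 on the plus strand for Col4a5. Capitals in these and in the chromosome 1 bases mark a CCAAT box (letters CCAAT) or a GC box (letters GGGCGG), searched on both strands.
upstream of Col4a6: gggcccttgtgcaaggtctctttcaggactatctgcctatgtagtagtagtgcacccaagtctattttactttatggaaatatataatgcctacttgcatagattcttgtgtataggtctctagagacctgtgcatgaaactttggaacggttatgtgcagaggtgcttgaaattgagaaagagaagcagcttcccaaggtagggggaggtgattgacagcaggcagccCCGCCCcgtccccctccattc
upstream of Col4a5: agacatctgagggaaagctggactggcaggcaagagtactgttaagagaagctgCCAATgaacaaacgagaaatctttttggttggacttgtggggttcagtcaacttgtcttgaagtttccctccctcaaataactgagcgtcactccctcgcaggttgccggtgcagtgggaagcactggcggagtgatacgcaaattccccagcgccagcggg
These stretches are of unequal length, and G and C made up 80% of the 30 bases at the shared start of Col4a1 and Col4a2, against 69.0% between Col4a4 and Col4a3, 47.6% before Col4a6 and 52.3% before Col4a5.

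The other 4 genes lie alone. Col8a1 (ENSMUSG00000068196) is on the minus strand of chromosome 16, from 57624258 to 57754737. Col8a2 (ENSMUSG00000056174) and Col15a1 (ENSMUSG00000028339) are on the plus strand of chromosome 4, from 126286793 to 126314330 and from 47208161 to 47313167. Col18a1 (ENSMUSG00000001435) is on the minus strand of chromosome 10, from 77052178 to 77166548. RefSeq promoter windows, which run from 250 bases before to 50 bases after a start, were matched for 9 of the 10 genes and gave 10 windows, 2 of them for Col18a1, and Col4a3 was not matched. The windows of Col8a1 and Col8a2, the partner chains of type VIII, each held 4 GC boxes, those of Col4a2 and the upstream start of Col18a1 held 3 each, and those of Col4a1, Col4a5 and Col4a6 held 1 each. The Col4a1 and Col4a2 windows overlap, and the GC box of Col4a1 lies in the shared bases and is also counted for Col4a2. The windows of Col4a4, Col15a1 and the downstream start of Col18a1 held none, and 35.7% of all 32851 windows held at least 1. A CCAAT box was found in the windows of Col4a1, Col4a2, Col4a5 and the upstream start of Col18a1, and in 37.4% of all windows. None of the members' windows held the letters TATAAA, which 13.6% of all windows did. These are matches of letters and not sites of binding.

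The levels of the genes fell into a high and a low class (plot of TPM by library). Levels are given in TPM, which are counts divided by gene length and scaled to the same total in each library, so that genes can be compared with each other. Col18a1, the chain of type XVIII collagen, was the most abundant, with 435, 436 and 441 TPM in Col3a1+/G182R aortas against 528, 474, 450.5 and 445 TPM in Col3a1+/+ aortas. Col4a1, the main chain of vascular basement membranes, had 334, 359 and 415 TPM in Col3a1+/G182R aortas and 488, 345.5, 361 and 309 TPM in Col3a1+/+ aortas. Col18a1 lay above Col4a1 in 7 of 7 libraries, and Col4a1 lay above Col15a1 in 7 of 7. Col15a1, the chain of type XV collagen, had 208, 231 and 214 TPM in Col3a1+/G182R aortas against 339.7, 264, 250.3 and 299 TPM in Col3a1+/+ aortas. Col4a2, the partner of Col4a1, had 189, 196 and 219 TPM in Col3a1+/G182R aortas and 284, 207, 203 and 209 TPM in Col3a1+/+ aortas, and was below Col15a1 in 2 of 3 Col3a1+/G182R and 4 of 4 Col3a1+/+ libraries.

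**Figure D1:**
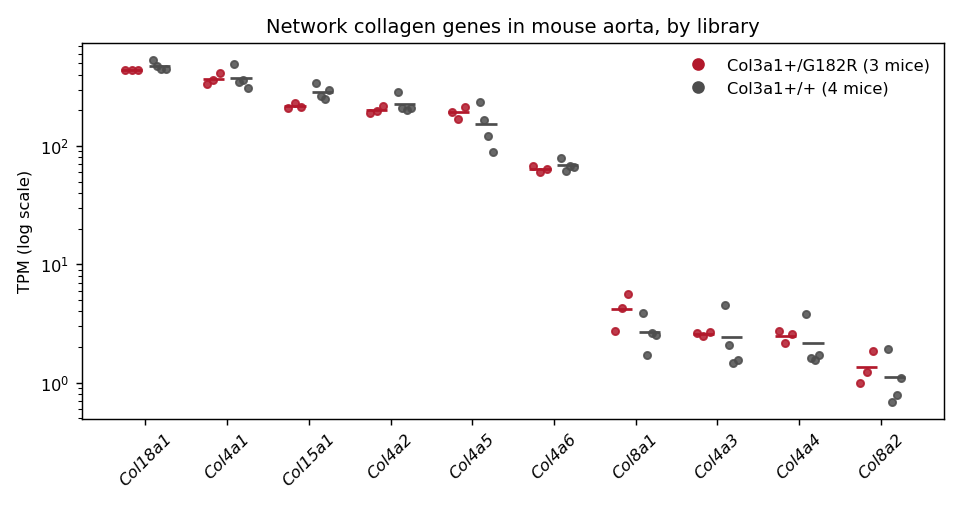
TPM of the 10 genes (log axis) in each aorta, ordered by mean level, with Col3a1+/G182R mice left (red, 3 mice) and Col3a1+/+ mice right (grey, 4 mice) and bars at the mean. The upper 6 genes lie at a mean of 66.9 TPM or more and 4 at 3.33 TPM or less, and the genotypes overlap in all but Col15a1 and Col18a1.

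Col4a5, the chain common to the alpha-3 and alpha-6 combinations, had 195, 170.1 and 213 TPM in Col3a1+/G182R aortas and 235, 167, 122 and 89.0 TPM in Col3a1+/+ aortas. Col4a6 had 68.4, 60.1 and 64.3 TPM in Col3a1+/G182R aortas and 79.9, 61.8, 67.2 and 66.5 TPM in Col3a1+/+ aortas. Col4a5 was above Col4a6 in 7 of 7 libraries. Below Col4a6 the level dropped 20.1-fold, to a mean over the 7 libraries of 3.33 TPM for Col8a1, followed by 2.50 TPM for Col4a3, 2.32 TPM for Col4a4 and 1.23 TPM for Col8a2. Among these 4 the order was not firm, since Col8a1 exceeded Col4a3 in 5 of 7 libraries and Col4a3 exceeded Col4a4 in 4 of 7, while Col4a4 exceeded Col8a2 in 7 of 7. All 10 genes passed the filter on low counts, Col8a2 on 67, 90 and 97 expected counts in Col3a1+/G182R aortas and 119, 37, 42 and 48 in Col3a1+/+ aortas.

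Per length, therefore, the alpha-1 and alpha-2 chains and the alpha-5 and alpha-6 chains made up nearly all type IV RNA of the aorta. Col4a1 and Col4a2 together took 66.1, 70.3 and 69.1% of the type IV TPM in Col3a1+/G182R aortas, against 70.5, 70.4, 74.6 and 76.5% in Col3a1+/+ aortas. Col4a5 and Col4a6 took 33.3, 29.1 and 30.3% in Col3a1+/G182R aortas, against 28.8, 29.1, 25.04 and 23.0% in Col3a1+/+ aortas. The genotypes did not overlap in either share, but the nearest libraries were 29.136% in Col3a1+/G182R and 29.12% in Col3a1+/+ for Col4a5 and Col4a6. These shares nearly mirror each other, since the remaining type IV genes took very little, so they are a single observation. This split was not tested, and none of the ratios given further on compares these pairs with each other. Col4a3 and Col4a4 took 0.576 to 0.674% in Col3a1+/G182R aortas and 0.400 to 0.767% in Col3a1+/+ aortas. Of the summed TPM of 44 collagen genes, type IV made up 13.1 ± 0.519% in Col3a1+/G182R aortas and 12.9 ± 0.225% in Col3a1+/+ aortas (SD, n = 3 and n = 4), with libraries of 12.5 to 13.5% in Col3a1+/G182R and 12.7 to 13.2% in Col3a1+/+. The 10 genes together made up 23.6 ± 1.72% in Col3a1+/G182R and 25.1 ± 1.45% in Col3a1+/+ aortas.

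None of the 10 genes differed between genotypes at the threshold (plot of genotype differences). With edgeR's quasi-likelihood test on counts, adjusted by the Benjamini-Hochberg method over all 15688 genes tested, 0 of 10 had an adjusted p under 0.05, against 0.0382% of all genes (6 genes). At an unadjusted p under 0.05 the count was also 0 of 10, against 20.4% of all genes. DESeq2 called 0 of 10 as well, against 4.61% of all genes. Measured log2 fold changes, Col3a1+/G182R over Col3a1+/+, were above 0 for 5 genes and below 0 for 5, with a median of 0.0058 beside 0.0077 over all genes. CPM did not overlap between genotypes for 1 of the 10 genes, Col4a2, which was lower in Col3a1+/G182R, against 20.9% of all genes in either direction and 10.8% in that direction. Nothing in the labels says that the libraries come from separate litters or extraction days, so p-values measure the spread between these 7 aortas, and fewer cells of a type cannot be told apart from less RNA per cell.

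**Figure D2:**
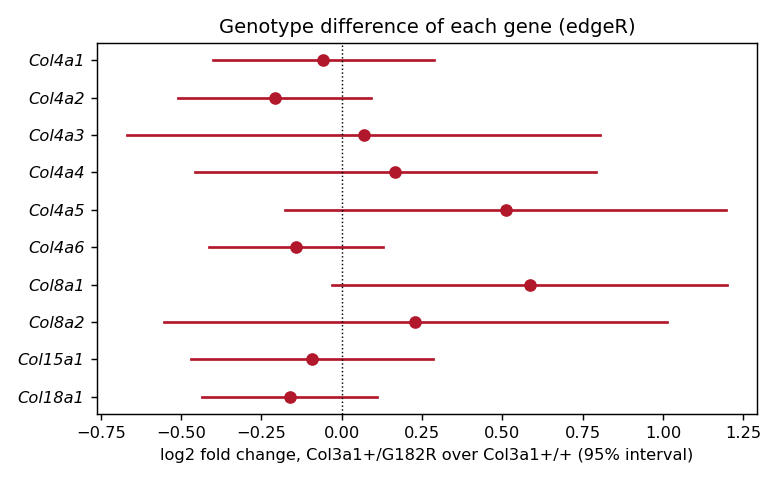
Log2 fold change of each gene, Col3a1+/G182R over Col3a1+/+ (edgeR, 3 and 4 mice), with lines for the 95% interval. All 10 intervals include 0, and the narrowest are those of Col4a6 and Col18a1.

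The intervals bound the differences. For Col4a1 the log2 fold change was -0.06 ± 0.15 (SE), with a 95% interval of -0.40 to 0.29 (edgeR adjusted p = 0.851). Col4a1 had 1197, 1404 and 1389.8 CPM in Col3a1+/G182R aortas and 1666, 1383, 1350.3 and 1136 CPM in Col3a1+/+ aortas. For Col4a2 it was -0.21 ± 0.14, with an interval of -0.51 to 0.09 (edgeR adjusted p = 0.387), and without Col3a1+/+ replicate 1 it was -0.12. Col4a2 had 852, 905 and 909 CPM in Col3a1+/G182R aortas against 1216, 981, 979 and 931 CPM in Col3a1+/+ aortas, so that the genotypes were adjacent without overlapping and only Col3a1+/+ replicate 1 stood well apart. Col4a6 (log2 fold change -0.14, interval -0.41 to 0.13) and Col18a1 (-0.16, interval -0.43 to 0.11) had the tightest estimates. For these 4 genes a rise or fall of 2-fold lay outside the interval.

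Col4a5 had a wide spread that came from 1 genotype. It had 659, 629 and 670.02 CPM in Col3a1+/G182R aortas, against 707, 541, 347 and 237 CPM in Col3a1+/+ aortas. The coefficient of variation was 3.27% among the 3 Col3a1+/G182R libraries and 45.4% among the 4 Col3a1+/+ libraries, whose highest was 2.98-fold above the lowest. The log2 fold change was 0.51 ± 0.31 (SE), with an interval of -0.18 to 1.20 (edgeR adjusted p = 0.357). It was 0.80 without Col3a1+/+ replicate 1 (edgeR adjusted p = 0.104) and 0.29 without Col3a1+/+ replicate 4 (adjusted p = 0.463). DESeq2 without Col3a1+/+ replicate 1 called Col4a5 (0.80, adjusted p = 0.0247), in a setting that called 1860 of 15471 genes. The order of the Col3a1+/+ libraries was that of the first principal component of all genes, which held 43.3% of the variance, with scores of -25.1, -33.0 and -35.2 in Col3a1+/G182R and of -11.2, 7.72, 31.2 and 65.6 in Col3a1+/+ replicates 1 to 4. Of the 10753 protein-coding genes with a mean of at least 5 CPM, 381 had a Pearson correlation over 0.95 with Col4a5 over the 7 libraries, against 2 (Col15a1) to 17 (Col18a1) for the other 9 genes. The nearest were Adam9 (r = 0.997), Colec12 (0.993) and Dnajc1 (0.993), a description in which all points share the 7 libraries and Col3a1+/+ replicate 4 lies far out.

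Col4a6, which starts 1308 bases away, varied little over the same libraries, with 319, 284 and 275 CPM in Col3a1+/G182R aortas and 351, 300.3, 333 and 306 CPM in Col3a1+/+ aortas. The coefficient of variation over all 7 libraries was 33.4% for Col4a5 and 8.70% for Col4a6, and their genes of most similar pattern were different, with Gpc1 (r = 0.972), Unc45a (0.964) and Capns1 (0.960) for Col4a6.

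The minor chains Col4a3 and Col4a4 were low, and level among the Col3a1+/G182R libraries. Col4a3 had 15.3, 15.3 and 14.9 CPM in Col3a1+/G182R aortas and 25.9, 12.7, 9.55 and 9.34 CPM in Col3a1+/+ aortas. Col4a4 had 19.5, 15.96 and 17.1 CPM in Col3a1+/G182R aortas and 25.9, 12.2, 11.7 and 12.2 CPM in Col3a1+/+ aortas. In both, Col3a1+/+ replicate 1 lay above all Col3a1+/G182R libraries and the other 3 Col3a1+/+ libraries lay below them. The log2 fold change of Col4a3 was 0.07 (interval -0.67 to 0.80, edgeR adjusted p = 0.917) and that of Col4a4 was 0.17 (interval -0.46 to 0.79, adjusted p = 0.751). Without Col3a1+/+ replicate 1 they were 0.53 (edgeR adjusted p = 0.111) and 0.54 (adjusted p = 0.0814). DESeq2 then called Col4a4 (0.53, adjusted p = 0.0386), in the setting that called 1860 of 15471 genes. Insyn1 was among the 3 genes of most similar pattern for both, with r = 0.995 for Col4a3 and 0.963 for Col4a4 over the 7 libraries.

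The same library was the highest Col3a1+/+ library for 10 of 10 genes, both in CPM and in TPM. Over all genes tested, Col3a1+/+ replicate 1 was the highest of the 4 Col3a1+/+ libraries for 26.3% in CPM and 38.6% in TPM. It was the highest of all 7 libraries for 9 of the 10 genes, Col8a1 being the exception, against 10.3% of all genes in CPM and 16.2% in TPM. The 10 genes share this 1 library and are not independent of each other. In it the summed TPM of 10 smooth muscle markers was the highest of the 7, with 24745 to 26551 TPM in Col3a1+/G182R, 29657 TPM in Col3a1+/+ replicate 1 and 18190 to 25039 TPM in the other Col3a1+/+ libraries. Its summed TPM of 12 adventitial fibroblast markers, at 3250.0, was within the 2544 to 3599 TPM of Col3a1+/G182R and above the 1710 to 2032 TPM of the other Col3a1+/+ libraries. Cardiac muscle markers were also highest in it, at 151 TPM, against 32.3 to 34.1 TPM in Col3a1+/G182R and 44.8 to 95.5 TPM in the other Col3a1+/+ libraries. So were Schwann cell markers (273 TPM) and mesothelium and epithelium markers (37.7 TPM). Their part in the result was not tested.

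Type VIII collagen was scarce, and Col8a1 had the largest measured log2 fold change of the 10 genes in edgeR with all 7 libraries, while limma-voom gave 0.55 for Col8a1 and 0.64 for Col4a5. Col8a1 had 9.70, 15.5 and 18.3 CPM in Col3a1+/G182R aortas against 13.2, 6.39, 9.91 and 8.9996 CPM in Col3a1+/+ aortas. The means were 14.5 ± 4.38 CPM in Col3a1+/G182R and 9.63 ± 2.81 CPM in Col3a1+/+ aortas (SD, n = 3 and n = 4) and the genotypes overlapped. The log2 fold change was 0.58 ± 0.27 (SE), with an interval of -0.03 to 1.20 (edgeR adjusted p = 0.260, unadjusted p = 0.0597), and it ran from 0.38 without Col3a1+/G182R replicate 3 to 0.79 without Col3a1+/G182R replicate 1. Col8a2 had 3.01, 3.84 and 5.10 CPM in Col3a1+/G182R aortas and 5.51, 2.17, 2.54 and 3.25 CPM in Col3a1+/+ aortas, with a log2 fold change of 0.23 (interval -0.55 to 1.01, edgeR adjusted p = 0.726). Its interval reached a 2-fold rise, and the value was 0.0093 without Col3a1+/G182R replicate 3 and 0.59 without Col3a1+/+ replicate 1.

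Types XV and XVIII were the 2 genes whose TPM did not overlap between genotypes, against 18.9% of all genes in either direction and 9.32% in their direction. Col15a1 averaged 218 ± 11.9 TPM in Col3a1+/G182R aortas and 288 ± 40.0 TPM in Col3a1+/+ aortas, and Col18a1 averaged 437 ± 3.04 TPM in Col3a1+/G182R aortas and 474 ± 38.0 TPM in Col3a1+/+ aortas (SD, n = 3 and n = 4). In CPM, which takes no account of length, both overlapped. Col15a1 had 401, 479 and 382 CPM in Col3a1+/G182R aortas and 561, 466, 367 and 399 CPM in Col3a1+/+ aortas, with a log2 fold change of -0.09 ± 0.17 (SE, edgeR adjusted p = 0.774). Col18a1 had 1536, 1575 and 1433 CPM in Col3a1+/G182R aortas and 1769, 1753, 1701 and 1555 CPM in Col3a1+/+ aortas (edgeR adjusted p = 0.457). With the effective length of each gene in each library as an offset, the log2 fold change of Col15a1 was -0.43 ± 0.13 (SE, edgeR adjusted p = 0.159, unadjusted p = 0.00985), the only one of the 10 at an unadjusted p under 0.05, against 21.1% of all genes. The adjusted test with this offset called 0 of the 10 and 0.0892% of all genes.

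The gap between the scales for Col15a1 came with a difference in the length that was assigned to the gene (plot of weighted transcript length). RSEM gives each gene the mean length of its transcripts, weighted by their estimated abundance. For Col15a1 this length was 2812, 2944 and 2832 bases in Col3a1+/G182R aortas, against 2552, 2479, 2036 and 2008 bases in Col3a1+/+ aortas. The difference was 0.34 ± 0.10 (SE) on the log2 scale with limma (unadjusted p = 0.0161, adjusted p = 0.242). With its sign, positive for longer in Col3a1+/G182R, it was above that of 96.2% of the 12396 genes whose length varied. For Col4a5 the weighted length was 4835, 5157 and 4895 bases in Col3a1+/G182R aortas, against 4552, 4454, 3845 and 3884 bases in Col3a1+/+ aortas. The signed difference was 0.25 ± 0.07 (SE, limma unadjusted p = 0.0162, adjusted p = 0.242), above that of 92.6% of those genes. These were the only members whose length did not overlap between genotypes, both longer in Col3a1+/G182R, against 9.35% of all genes in that direction, and the limma test passed 0 of the 8 members fitted and 0.0161% of all genes at an adjusted p under 0.05. The comparison was chosen after the data were seen.

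**Figure D3:**
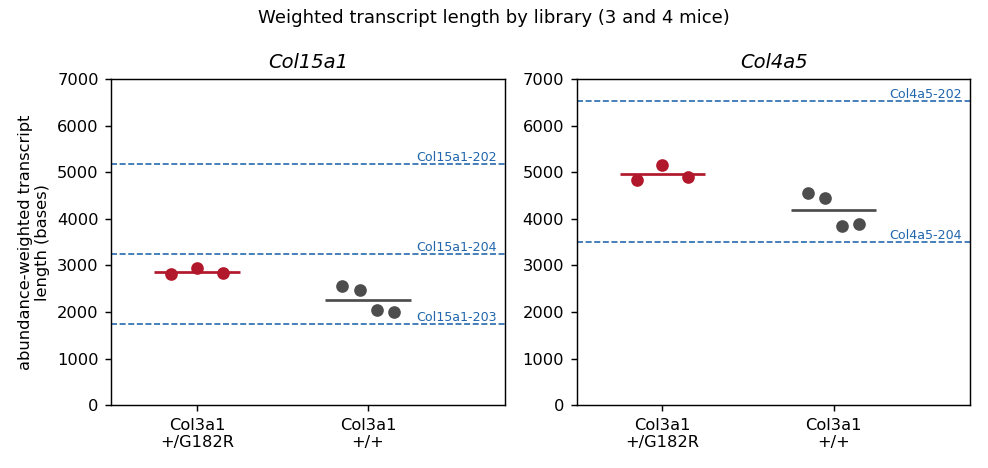
Abundance-weighted transcript length in bases of Col15a1 and Col4a5 in each aorta, with Col3a1+/G182R left (red, 3 mice) and Col3a1+/+ right (grey, 4 mice), bars at the mean and dashed lines at the lengths of some annotated transcripts. All 3 Col3a1+/G182R libraries lie above all 4 Col3a1+/+ libraries in both genes.

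The annotated transcripts bound these lengths. The longest Col15a1 transcript has 40 exons and 5172 bases, and 2 shorter coding transcripts that end at or within 5 bases of the same 3′ end, of 19 exons and 3253 bases and of 8 exons and 1755 bases, start inside the gene at 47288069 and 47303722. Further Col15a1 transcripts of 345 to 705 bases, some of them coding, are annotated inside the gene and enter the same weighted mean. The weighted length, 2863 ± 71.4 bases in Col3a1+/G182R and 2269 ± 287 bases in Col3a1+/+ aortas (SD, n = 3 and n = 4), was below 3253 bases in each library. The transcripts of Col4a5 include 1 of 53 exons and 6536 bases and 1 of 21 exons and 3511 bases, which starts at 141630124 and shares the 3′ end. Transcript-level estimates were not analysed here. A pair of library measures moved with genotype beside these lengths. Gene length minus effective length, which follows the fragment length, was 121 to 131 bases in Col3a1+/G182R and 114 to 120.02 bases in Col3a1+/+ libraries (exact permutation test, p = 0.0286, the smallest the 35 splits allow, adjusted p = 0.0571). The summed TPM of 7 nuclear RNAs was 780 to 993 in Col3a1+/G182R and 1281 to 2099 in Col3a1+/+ libraries. Their part in the result was not tested.

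Ratios of 5 pairs of partner or related chains were taken within each library, as counts per base of effective length. They were compared by an exact two-sided permutation test with Benjamini-Hochberg adjustment over the 5 (plot of chain ratios). Col4a1 over Col4a2 was 1.76, 1.83 and 1.89 in Col3a1+/G182R aortas and 1.72, 1.67, 1.78 and 1.48 in Col3a1+/+ aortas (exact p = 0.114, adjusted p = 0.25). It was the steadiest ratio, with a coefficient of variation of 7.73% over the 7 libraries, less than the 12.5% and 12.2% of the CPM of its genes. Col4a3 over Col4a4 was 0.963, 1.14 and 1.03 in Col3a1+/G182R aortas and 1.19, 1.27, 0.965 and 0.903 in Col3a1+/+ aortas (exact p = 0.8286, adjusted p = 0.8286). Its coefficient of variation was 12.8%, against 37.9% and 31.3% for the CPM of its genes, so these 2 chains followed each other across the libraries.

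**Figure D4:**
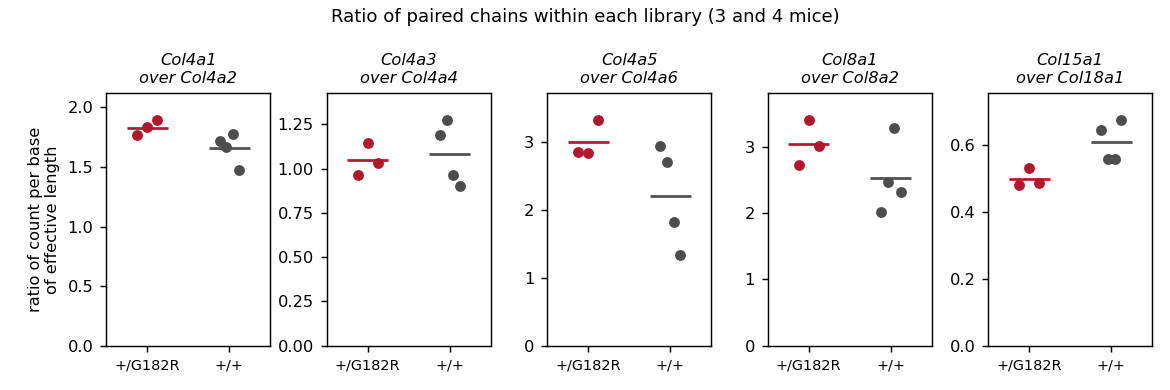
Ratio of counts per base of effective length for 5 gene pairs (linear axes from 0), each point 1 aorta, with Col3a1+/G182R left (red, 3 mice), Col3a1+/+ right (grey, 4 mice) and bars at the mean. Only Col15a1 over Col18a1 has no overlap, with 0.478 to 0.530 in Col3a1+/G182R and 0.556 to 0.672 in Col3a1+/+.

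The other 3 ratios varied more. Col4a5 over Col4a6 was 2.85, 2.83 and 3.32 in Col3a1+/G182R aortas, against 2.94, 2.699, 1.82 and 1.34 in Col3a1+/+ aortas (difference of the mean log2 ratio 0.51, exact p = 0.20, adjusted p = 0.25, and 0.30 without Col3a1+/+ replicate 4), and 1 of the 4 Col3a1+/+ libraries lay among the Col3a1+/G182R values and 3 below them. Its coefficient of variation of 27.5% lay between the 33.4% of Col4a5 and the 8.70% of Col4a6 in CPM. Col8a1 over Col8a2 was 2.73, 3.40 and 3.02 in Col3a1+/G182R aortas and 2.02, 2.47, 3.29 and 2.32 in Col3a1+/+ aortas (exact p = 0.171, adjusted p = 0.25). The coefficient of variation of this ratio was 18.7%, less than the 35.3% and 34.8% of the CPM of its genes. Col15a1 over Col18a1, which are related chains but not partners, was 0.478, 0.530 and 0.486 in Col3a1+/G182R aortas, against 0.643, 0.556, 0.556 and 0.672 in Col3a1+/+ aortas (difference -0.28, exact p = 0.0571, adjusted p = 0.25). The ratios of Col4a5 and Col15a1 carry the length difference described for these genes, since the effective length is their divisor.

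The partners of these collagens were counted in 5 lists, and 0 genes of any list passed edgeR's adjusted test. Of 25 basement membrane partners, 21 were tested, 12 measured higher and 9 lower, and the median log2 fold change was 0.07 beside 0.0077 over all genes. At an unadjusted p under 0.05, against 20.4% of all genes, 2 measured higher and 2 lower. Sparc, a matrix protein that binds type IV collagen, was the most abundant at a mean of 8584 TPM (log2 fold change -0.21, edgeR adjusted p = 0.456). Hspg2 encodes the heparan sulfate proteoglycan perlecan. It had 325, 285 and 329 TPM in Col3a1+/G182R aortas against 466, 477, 503 and 481 TPM in Col3a1+/+ aortas. These did not overlap, against 9.32% of all genes with lower TPM in Col3a1+/G182R and no overlap. TPM also depends on the length assigned to a gene, which is not given here for Hspg2. Its CPM did not overlap either, at 800 ± 45.4 in Col3a1+/G182R and 935 ± 67.6 in Col3a1+/+ aortas (SD, n = 3 and n = 4). Of the 21 tested, 3 had no overlap in CPM, all lower in Col3a1+/G182R, against 10.8% of all genes in that direction. For Hspg2 the log2 fold change was -0.23 (edgeR adjusted p = 0.315). Npnt, the integrin ligand nephronectin, had -0.02 (adjusted p = 0.961 in edgeR) and Tinagl1 had -0.04 (adjusted p = 0.868). The 4 at an unadjusted p under 0.05, named after their values were seen, were Agrn (agrin, -0.45) and Lama5 (the laminin alpha-5 chain, -0.37), with lower CPM in Col3a1+/G182R and no overlap, and Nid1 (nidogen, which links laminin to type IV collagen, 0.60) and Ntn4 (netrin-4, 0.59), with overlap.

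Of 24 genes for the assembly and secretion of type IV collagen, 23 were tested, 13 measured higher and 10 lower, with a median of 0.01. The most abundant were Serpinh1, the collagen chaperone (log2 fold change 0.05, edgeR adjusted p = 0.853), P4hb, a subunit of prolyl 4-hydroxylase (-0.08, adjusted p = 0.781), Hsp90b1 (0.30, adjusted p = 0.365) and Pdia3 (0.26, adjusted p = 0.419), both general chaperones of the endoplasmic reticulum. At an unadjusted p under 0.05 there were 2 of the 23, against 20.4% of all genes. Both measured lower, P4ha2 (a catalytic subunit of prolyl 4-hydroxylase, -0.38) and Fkbp10 (a prolyl isomerase, -0.42), and were named after their values were seen. Of 13 receptor genes 12 were tested, 8 measured higher and 4 lower, with a median of 0.19, led in abundance by the integrin subunits Itgb1 (0.40, edgeR adjusted p = 0.406) and Itgb5 (-0.04, adjusted p = 0.908), Dag1, the dystroglycan gene (0.09, adjusted p = 0.774), and the integrin subunit Itgb3 (-0.38, adjusted p = 0.205).

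Of 17 proteases and inhibitors that act on these collagens 14 were tested, 12 measured higher and 2 lower, with a median of 0.14. Ctsd and Ctsb encode cathepsins and had 0.09 (edgeR adjusted p = 0.678) and 0.08 (adjusted p = 0.772), and Timp3 and Timp2 encode metalloproteinase inhibitors and had 0.21 (adjusted p = 0.506) and 0.15 (adjusted p = 0.610). Of 12 other network and transmembrane collagens 8 were tested, 3 measured higher and 5 lower, with a median of -0.08. The beaded-filament collagen genes Col6a1, Col6a3, Col6a2 and Col6a6 had -0.25, -0.26, -0.02 and 0.28 (edgeR adjusted p = 0.259, 0.296, 0.941 and 0.527). At an unadjusted p under 0.05, against 20.4% of all genes, 2 of 12 receptor genes tested (Itga3 and Itgb3) measured lower in Col3a1+/G182R. So did 1 of these 8 collagen genes (Col7a1), while 1 of the 14 proteases and inhibitors (Ctss, cathepsin S) measured higher. All but Itgb3 were named after their values were seen.

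Markers of several cell types were read in each library. Smooth muscle markers were abundant in every library, and for 10 of 13 marker lists the summed TPM overlapped between genotypes. Blood endothelium markers summed to 432 to 605 TPM in Col3a1+/G182R and 275 to 715 TPM in Col3a1+/+ libraries, capillary and pericyte markers to 1030.3 to 1647 TPM in Col3a1+/G182R and 976 to 1291 TPM in Col3a1+/+ libraries, and macrophage markers to 232 to 606 TPM in Col3a1+/G182R and 180.4 to 281 TPM in Col3a1+/+ libraries. Gene by gene, 10 of 12 macrophage markers measured higher in Col3a1+/G182R (7 at an unadjusted p under 0.05, median log2 fold change 0.70). So did 11 of 12 adventitial fibroblast markers (5, median 0.36) and 7 of 7 lymphatic endothelium markers (2, median 0.82). The same held for 9 of 10 adipocyte markers (2, median 0.43) and 5 of 5 red blood cell markers tested (2, median 0.87). Lower were 5 of 5 cardiac muscle markers tested (4, median -1.06) and 5 of 6 skeletal muscle markers tested (2, median -0.78). All 6 nuclear RNAs tested were also lower (4, median -0.55), and the other lists were less one-sided. The whole set of genes had a median of 0.0077, with 20.4% below that unadjusted threshold. In these lists 0 genes passed edgeR's adjusted test. Besides the nuclear RNAs, the lists without overlap were cardiac muscle, with 32.3 to 34.1 TPM in Col3a1+/G182R and 44.8 to 151 TPM in Col3a1+/+ libraries, and skeletal muscle, with 10.5 to 14.97 TPM in Col3a1+/G182R and 19.4 to 33.3 TPM in Col3a1+/+ libraries. Total counts were 18820015 to 23953746 in Col3a1+/G182R and 13693861 to 21634680 in Col3a1+/+ libraries (exact permutation test, p = 0.143, adjusted p = 0.143). The part of these measures in the members' values was not tested.

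The genes whose log2 CPM over the 7 libraries was most like that of the remaining members differed from member to member. They were Kif5c (r = 0.981), Rab35 (0.978) and Tmem185a (0.973) for Col4a1, and Nans (0.971), Mtmr4 (0.967) and Fgfr1 (0.9503) for Col4a2. For Col15a1 they were Bloc1s3 (0.966), Msantd3 (0.956) and Dctpp1 (0.937), and for Col18a1 Tnfaip3 (0.993), Hilpda (0.975) and Inafm2 (0.972). For Col8a1 they were Znfx1 (0.985), Lpar1 (0.982) and Bptf (0.978), and for Col8a2 Enpp3 (0.979), Lasp1 (0.977) and Akr1b8 (0.977). For Col4a3 Chpf (0.977) and Rnf19b (0.973) followed Insyn1, and for Col4a4 C1qtnf7 (0.971) and Ace (0.969) preceded it. Each is the top of 10753 genes over 7 points that share their libraries and is a description only.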

How the data were processed

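RNA of 7 aortas was sequenced as stranded poly(A) libraries. The submitters' processing notes name STAR 2.7.6a, RSEM 1.3.1 and GRCm38. RSEM gave the authors' deposited expected counts, in which a read that fits more than 1 gene is divided. The annotation release and the strand setting are not given in the sources used here. TPM, as deposited by the authors, divides these counts by effective length within each library. It entered a test only as an alternative scale for the ratios of chains. The deposited gene lengths and effective lengths, in bases, are other values of the same files. The study's methods section names an earlier STAR release, featureCounts and DESeq2, and also limma's moderated t test for choosing the changed genes.

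Expected counts were rounded. Low counts were removed by filterByExpr (edgeR 4.0.16, minimum count 10), and libraries were scaled by TMM and compared by edgeR's two-sided quasi-likelihood test in R 4.3.3, with Benjamini-Hochberg adjustment over all 15688 genes and a threshold of 0.05. CPM use the TMM factors. DESeq2 1.42.0 and limma 3.58.1 were run beside it. The fits were tested on simulated data. Ratios add 0.5 to each count. Correlations use log2 CPM with a prior count of 2. Symbols come from GENCODE M21 (55227 of 55487 identifiers found). Named partner genes are the 4 most abundant of each list and any past the threshold, and like patterns are the 3 highest correlations. The members and lists were chosen with earlier results of these data known. Alternatives are given in the closing section. DESeq2 without each library and the test of weighted length were added after seeing the data. Same-numbered libraries of the genotypes were treated as unpaired, since their deviations correlated at -0.05 to 0.08 (3 pairs).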

Additional observations from a re-analysis of the deposited data

Results flagged for a closer look

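In Col3a1+/+ aortas, 4 of 35 groups of values examined held a library apart from the other 3 by Dixon's criterion, which chance alone meets in about 1 of 20 groups. Replicate 1 was the highest for Col4a2 in TPM (284.24, a gap of 0.923 of the range), for Col4a4 in CPM (25.9, 0.963 of the range) and for Col4a4 in TPM (3.83, 0.917 of the range). Col3a1+/G182R aortas had 189 to 219 TPM of Col4a2, 15.96 to 19.5 CPM of Col4a4 and 2.18 to 2.72 TPM of Col4a4. Replicate 3 was the lowest for the weighted length of Col8a1 (5082 bases, 1 of the range), where the other 3 Col3a1+/+ libraries were all at 5108 bases, and Col3a1+/G182R libraries were at 5068 to 5108 bases. The only coding transcript annotated for Col8a1 has 5108 bases. With 3 libraries tied at that length, any shorter value meets the criterion, so the chance rate given above does not apply to this flag. These flags are not independent, since 3 of the 4 rest on the same library. Groups of 3, and so Col3a1+/G182R, were not examined.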

How the results depend on the processing

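Over all genes, calls numbered 6 with edgeR, 6 with RLE factors, 11 with limma-voom, 546 with library quality weights, 723 with DESeq2, 353 without the low-count filter, 0 under a minimum of 10 counts per gene and library (3046 by unadjusted p) and 14 with the length offset. Leaving out a library gave 0 to 183 calls with edgeR (183 without Col3a1+/+ replicate 1, 32 without replicate 4). With DESeq2 it gave 120 to 1860 calls (1860 of 15471 genes without Col3a1+/+ replicate 1). The replicate block, with numbers that do not pair the mice, gave 46 calls over all genes and 0 of the 10 members.

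None of the 8 alternatives that kept all libraries called a member, the lowest adjusted p being 0.151 (Col8a1, quality weights). Col15a1 reversed with quality weights (0.0070). Without each library in turn, log2 fold changes ran from -0.15 to 0.045 for Col4a1 in edgeR (-0.14 to 0.041 in DESeq2), -0.098 to 0.53 for Col4a3 (-0.088 to 0.52), 0.049 to 0.54 for Col4a4 (0.054 to 0.53), 0.29 to 0.80 for Col4a5 (0.30 to 0.80) and -0.19 to 0.035 for Col15a1 (-0.19 to 0.031). DESeq2 without Col3a1+/+ replicate 1 was the one setting past the threshold, for Col4a4 and Col4a5, beside 1860 of 15471 genes. The log2 ratio of Col4a3 over Col4a4 was -0.039 and ran from -0.12 to 0.043, above 0 without Col3a1+/G182R replicate 1, Col3a1+/+ replicate 1 or Col3a1+/+ replicate 2. The other 5 members and 4 ratios kept their direction, but Col8a2 ran from 0.0093 to 0.59, Col8a1 from 0.38 to 0.79, Col4a2 from -0.26 to -0.12, Col4a6 from -0.22 (without Col3a1+/G182R replicate 1) to -0.098, and the log2 ratios of Col4a1 over Col4a2 from 0.089 (without Col3a1+/+ replicate 4) to 0.18, of Col4a5 over Col4a6 from 0.30 to 0.68 and of Col8a1 over Col8a2 from 0.19 (without Col3a1+/+ replicate 1) to 0.43. The cause of these changes was not tested. Col8a2 had the fewest expected counts of the members, 37 to 119 per library.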
